A study of Neurospora crassa with 5 samples.

Results

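RNA silencing in the filamentous fungus Neurospora crassa is carried by 2 related sets of genes. The transcripts of 10 of these genes were examined in cultures bearing protoperithecia, the immature female fruiting bodies. The genes were chosen by locus tag, 10 of the 10591 gene rows of the deposited count table, and their names were taken from the RefSeq gene table of assembly NC12. They were sorted by known function into 4 quelling genes (qde-1, qde-2, qde-3 and dcl-2), 2 genes that act in both pathways (dcl-1 and qip) and 4 genes of meiotic silencing (sad-1, sad-2, sad-3 and sms-2).

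Quelling acts in vegetative cells against repeated transgenes and transposons. In both pathways an RNA-dependent RNA polymerase makes double-stranded RNA, a Dicer cuts it into small RNAs, and an Argonaute loaded with these small RNAs directs the loss of matching transcripts. Meiotic silencing by unpaired DNA does the same to genes that lack a pairing partner in meiosis, days after fertilisation, and uses its own polymerase and its own Argonaute. The question here was whether the vegetative and the sexual set were expressed to a like degree in cultures bearing protoperithecia. A further question was whether either set differed soon after spores of a wild type strain were added.

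The crossed group held 3 libraries (replicates 1, 2 and 3), taken 2 h after conidia, the asexual spores that can act as male partner, of the wild type FGSC 2489 were put on the cultures. The uncrossed group held 2 libraries (replicates 1 and 3) collected at time 0, just before crossing. The recipient in both groups was FGSC 4564, of genotype mat a[m1]s-3B cyh-1, which carries a mutation in the mating-type gene mat 1-2-1, and it had grown for 6 days on synthetic crossing medium. Each library came from the tissue of 1 plate. All libraries therefore share the mat 1-2-1 mutation and a single recipient strain. No library of the wild type or of conidia alone was analysed here. None came from a culture kept 2 h without conidia, so adding conidia and the passing of 2 h cannot be told apart.

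Total counts were 31063642 to 39592703 in crossed and 25817200 to 39639683 in uncrossed libraries. The libraries were uneven within groups. Crossed replicates 2 and 3 lay close together (root mean square log2 difference 0.32 over all tested genes). Crossed replicate 1 differed from them by 0.60 and 0.56 and from uncrossed replicate 3 by 0.48. Uncrossed replicates 1 and 3 differed by 0.62, and uncrossed replicate 1 lay 0.71 to 0.95 from the crossed libraries. Ribosomal RNA genes took 19.3%, 34.0% and 33.6% of the counts in crossed replicates 1, 2 and 3, and 14.3% and 21.3% in uncrossed replicates 1 and 3. The hydrophobin gene eas and the 4 con genes that mark conidia gave a summed 35718 to 64029 CPM (counts relative to the scaled library size) in crossed and 15162 to 30531 CPM in uncrossed libraries, so conidial transcripts were abundant before crossing too. The 8 markers of sexual tissue gave a summed 4498 to 4849 CPM in crossed and 3450 to 8071 CPM in uncrossed libraries, almost all of it from poi-2. The sexual marker fmf-1 was at 0 in crossed replicate 3 and at 0.24 CPM or less in the other 4 libraries. In such bulk samples a change in the share of a cell type and a change of RNA per cell cannot be told apart.

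The vegetative set was expressed throughout, and the sexual set was close to the limit of detection apart from sad-3. Levels were compared between genes as CPM per kilobase of the gene's span in assembly NC12. The sources used here do not name the build behind the counts, and spans include introns, so these levels are approximate. The summed level of the 4 quelling genes was 78.4, 49.5 and 52.1 CPM per kb in crossed replicates 1, 2 and 3, and 65.2 and 66.5 CPM per kb in uncrossed replicates 1 and 3. The 4 meiotic silencing genes summed to 1.05, 1.58 and 1.38 CPM per kb in the crossed libraries in the same order, and to 0.464 and 0.896 CPM per kb in the uncrossed libraries. The meiotic silencing genes thus made up 1.12% to 2.33% of the summed level of all 10 genes after crossing and 0.587% to 1.12% before it.

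The quelling sum was 74.8, 31.3 and 37.8 times the meiotic silencing sum in crossed replicates 1, 2 and 3, against 140.5 and 74.2 times in uncrossed replicates 1 and 3. These ratios overlapped between the groups at crossed replicate 1. Most of the meiotic silencing sum came from sad-3, with 80.8% to 95.6% of it in crossed and 70.6% to 72.9% in uncrossed libraries. The quelling sum was likewise dominated by one gene, since qde-2 gave 67.4% to 74.2% of it in crossed and 69.8% to 70.7% in uncrossed libraries.

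**Figure D1:**
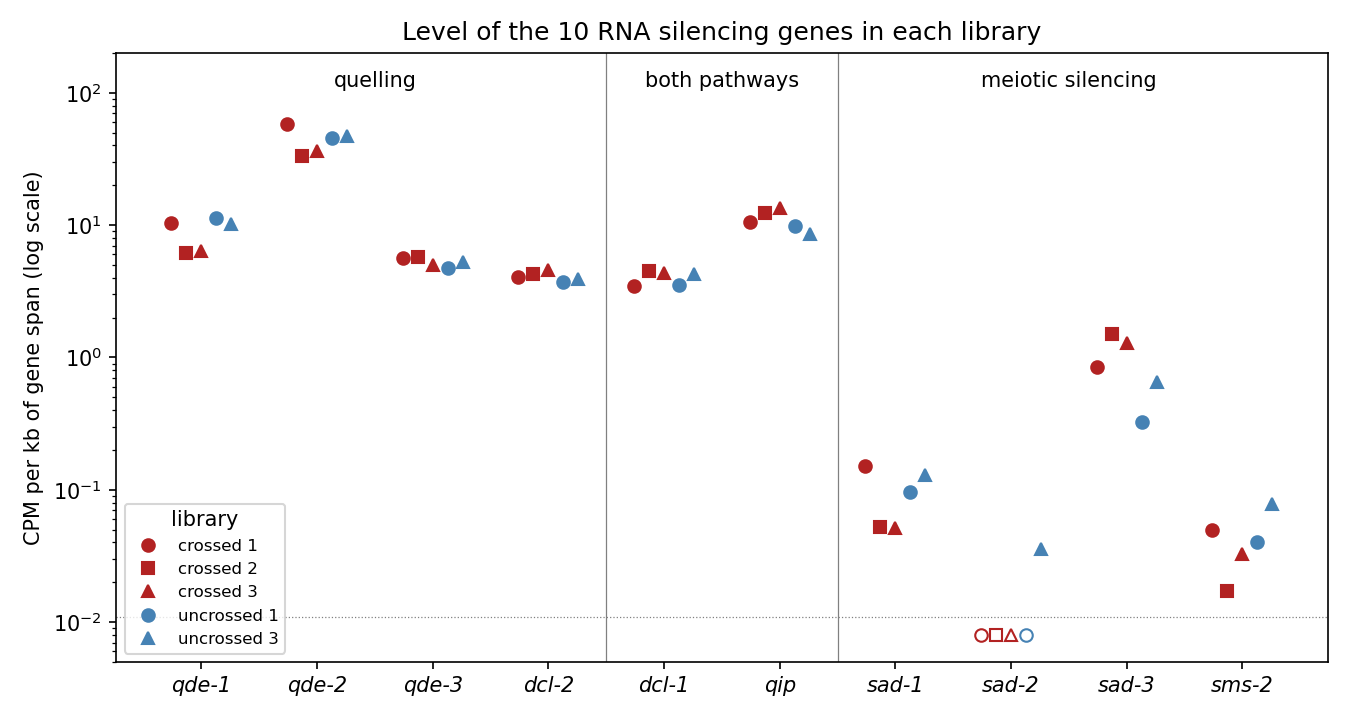
Level of each of the 10 genes as CPM per kb of gene span on a log axis, with 1 point for each crossed (red) and uncrossed (blue) library and open points below the dotted line for a count of 0. The quelling and shared genes lie between 3.49 and 58.2 CPM per kb, and the meiotic silencing genes between 0 and 1.51 CPM per kb, with sad-2 at 0 in 4 of the 5 libraries.

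The genes differed widely in level, although neighbours in the order overlapped in places. The Argonaute gene qde-2 (NCU04730) was highest, at 42.5 ± 13.6 CPM per kb in crossed (SD, n = 3) and 46.3 ± 1.06 CPM per kb in uncrossed libraries (SD, n = 2), above 83.0% of the tested genes. The exonuclease gene qip and the polymerase gene qde-1 came next, and the order of their means differed between the groups. The level of qip was 12.1 ± 1.48 CPM per kb in crossed (SD, n = 3) and 9.20 ± 0.983 CPM per kb in uncrossed libraries (SD, n = 2). The level of qde-1 was 7.66 ± 2.43 CPM per kb in crossed (SD, n = 3) and 10.7 ± 0.692 CPM per kb in uncrossed libraries (SD, n = 2), and the values of both genes overlapped across the 5 libraries.

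The helicase gene qde-3 and the Dicer genes dcl-2 and dcl-1 followed, with group means of 3.82 to 5.47 CPM per kb, and above 18.4% to 22.5% of the tested genes. The 2 Dicer genes did not differ from each other beyond their spread, with 3.49 to 4.48 CPM per kb for dcl-1 and 4.05 to 4.59 CPM per kb for dcl-2 in crossed libraries, and 3.50 to 4.27 and 3.69 to 3.95 CPM per kb for dcl-1 and dcl-2 in uncrossed libraries. Below them came sad-3 at 1.22 ± 0.340 CPM per kb in crossed (SD, n = 3) and 0.490 ± 0.230 CPM per kb in uncrossed libraries (SD, n = 2), above 6.8% of the tested genes. The last 3 genes, sad-1, sms-2 and sad-2, had group means of 0 to 0.113 CPM per kb, and sad-1 exceeded 0.1% of the tested genes.

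Of the 10 members, 8 passed the filter on low counts and were tested with edgeR's quasi-likelihood test, and none of the 8 passed a Benjamini-Hochberg adjusted p of 0.05. In the same fit 4 of 8638 genes passed, which is 0.0463%. Unadjusted p-values under 0.05 were found by edgeR for 2 of the 8 members, qip and sad-3, against 21.3% of all tested genes. DESeq2 gave an adjusted p to 7 of the 8, all but sad-1, and called 1 of the 7, sad-3, against 12.4% of the genes to which it gave an adjusted p. The CPM values of crossed and uncrossed libraries did not overlap in 3 of the 8 members, dcl-2, qip and sad-3, all with crossed higher, against 41.9% of all tested genes in either direction and 21.3% with crossed higher. The median log2 fold change was 0.10 over the 8 members, 5 above 0 and 3 below, and 0.00 over all tested genes. The p-values set the difference between the groups against the spread between libraries of 1 strain, each from 1 plate.

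Without crossed replicate 1, edgeR called 1 member, qde-1, where 8.84% of all tested genes were called. The groups then did not overlap in 7 of the 8 members, against 69.3% of all tested genes. Without uncrossed replicate 3 they did not overlap in 5 of the 8, against 73.9% of all tested genes. With plain library sizes they did not overlap in 2 of the 8, dcl-1 with crossed lower and sad-3 with crossed higher, against 38.3% of all tested genes.

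**Figure D2:**
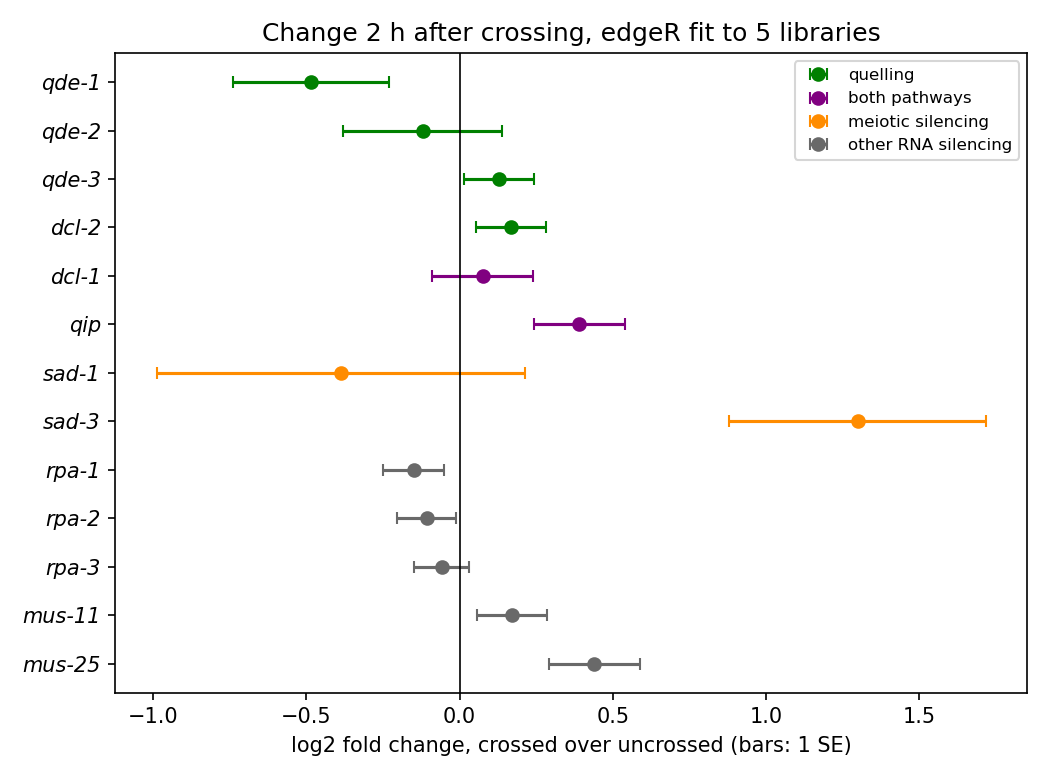
Log2 fold change of crossed over uncrossed libraries (horizontal axis) with 1 SE for the 8 tested members and 5 further genes linked to RNA silencing, from the edgeR fit to all 5 libraries. The gene sad-3 lies at 1.299 and the other 12 genes between -0.49 and 0.44.

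Among the quelling genes the RNA-dependent RNA polymerase gene qde-1 (NCU07534) had the lowest fold change. Its protein makes the double-stranded RNA that starts quelling. It had 58.0, 34.1 and 35.3 CPM in crossed replicates 1, 2 and 3, and 62.2 and 56.8 CPM in uncrossed replicates 1 and 3. Crossed replicates 2 and 3 were well below both uncrossed libraries, but crossed replicate 1 lay between them, so the groups overlapped. The log2 fold change stood at -0.49 ± 0.26 (SE), and edgeR's adjusted p at 0.316. Without crossed replicate 1 the log2 fold change was -0.78 ± 0.09 (SE), and edgeR's adjusted p was 0.0287.

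The Argonaute gene qde-2, whose protein binds the small RNAs of quelling, set the same libraries apart. It had 259, 149 and 161 CPM in crossed replicates 1, 2 and 3, and 203 and 210 CPM in uncrossed replicates 1 and 3. Crossed replicate 1 was the highest of the 5 and crossed replicates 2 and 3 the lowest. The log2 fold change was -0.12 ± 0.26 (SE), edgeR's adjusted p was 0.795, and without crossed replicate 2 the estimate turned to 0.027. In log2 CPM crossed replicate 1 exceeded the mean of crossed replicates 2 and 3 by 0.74 for qde-1 and by 0.74 for qde-2.

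The other quelling genes were steady. The RecQ DNA helicase gene qde-3 (NCU08598) had 42.0, 42.3 and 37.0 CPM in crossed replicates 1, 2 and 3, and 35.1 and 38.9 CPM in uncrossed replicates 1 and 3. The groups overlapped, and the log2 fold change stood at 0.13 ± 0.12 (SE, edgeR's adjusted p = 0.522). The Dicer gene dcl-2 (NCU06766), whose protein cuts most of the double-stranded RNA in quelling, had 23.2, 24.3 and 26.3 CPM in crossed replicates 1, 2 and 3, and 21.1 and 22.6 CPM in uncrossed replicates 1 and 3. All 3 crossed values were above both uncrossed values, by a narrow margin at crossed replicate 1, but a log2 fold change of 0.17 ± 0.12 (SE) did not pass the threshold (edgeR's adjusted p = 0.418). With plain library sizes both signs turned, to -0.08 for qde-3 and -0.051 for dcl-2, and the median over the 8638 tested genes shifted to -0.21. The SD of log2 CPM over the 5 libraries was 0.12 for each, and 19.0% and 19.4% of the tested genes had a smaller SD, against SDs of 0.42 for qde-1 and 0.32 for qde-2.

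The genes shared by both pathways differed little between the groups. The Dicer gene dcl-1 (NCU08270) is the partner of dcl-2 in quelling and the Dicer of meiotic silencing. It had 19.1, 24.5 and 23.6 CPM in crossed replicates 1, 2 and 3, and 19.1 and 23.4 CPM in uncrossed replicates 1 and 3. Low and high libraries occurred in both groups, and the log2 fold change of 0.08 ± 0.17 (SE, edgeR's adjusted p = 0.797) turned to -0.15 with plain library sizes and to -0.06 without uncrossed replicate 1.

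The gene qip (NCU00076) encodes the exonuclease that removes the passenger strand of small RNAs bound to QDE-2. It had 33.5, 39.4 and 42.9 CPM in crossed replicates 1, 2 and 3, and 31.7 and 27.2 CPM in uncrossed replicates 1 and 3. All crossed values were higher than both uncrossed values, but the log2 fold change of 0.39 ± 0.15 (SE) missed the threshold, as edgeR's adjusted p was 0.218. With plain library sizes the log2 fold change was 0.16 and the groups overlapped. In assembly NC12 the annotated spans of dcl-1 and qip each overlap 1 other gene, NCU08269 and NCU00075, and the sources used here do not say whether counting used strand, so reads of these neighbours may be included.

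The meiotic silencing gene with the most transcript was sad-3 (NCU09211), which encodes a helicase of the perinuclear silencing complex. It had 3.25, 5.82 and 4.97 CPM in crossed replicates 1, 2 and 3, from 116, 200 and 136 counts, and 1.26 and 2.51 CPM in uncrossed replicates 1 and 3, from 37 and 105 counts. Every crossed library was above both uncrossed libraries. The estimated difference was 2.46-fold (log2 1.299 ± 0.42, SE), with 3 of 3 crossed libraries higher. It did not pass the threshold in edgeR's quasi-likelihood test (adjusted p = 0.188), while DESeq2 gave an adjusted p of 0.0418. Over 13 alternative fits the log2 fold change of sad-3 stayed between 0.90 and 1.89, and its adjusted p ran from 0.0418 to 0.557. The lowest estimate came without uncrossed replicate 1 (0.90) and the highest without uncrossed replicate 3 (1.89), both by edgeR.

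The 5 libraries stood in the same order for sad-3 as for the summed conidial markers, which was, from high to low, crossed replicates 2, 3 and 1 and then uncrossed replicates 3 and 1. The hydrophobin gene eas had 27897, 47303 and 44024 CPM in crossed replicates 1, 2 and 3, and 9197 and 22810 CPM in uncrossed replicates 1 and 3. This exact order was shared by 6.58% of all tested genes, by con-6, con-13 and eas but not con-8 or con-10 among the 5 conidial markers, and by no other tested member. The part of conidial RNA in the sad-3 result was not tested.

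The other meiotic silencing genes were barely detected. The RNA-dependent RNA polymerase gene sad-1 (NCU02178), whose product is needed for meiotic silencing to start, had 27, 9 and 7 counts in crossed replicates 1, 2 and 3, and 14 and 27 counts in uncrossed replicates 1 and 3. These are 0.757, 0.262 and 0.256 CPM in the crossed and 0.476 and 0.645 CPM in the uncrossed libraries. Crossed replicate 1 was the highest library and crossed replicates 2 and 3 the lowest, as for qde-2. The exact 95% Poisson interval of crossed replicate 1 (0.499 to 1.10 CPM) lay above that of crossed replicate 2 (0.120 to 0.497 CPM) by a narrow margin but overlapped that of crossed replicate 3 (0.103 to 0.526 CPM), and those intervals cover counting error only. The estimated log2 fold change, -0.39 ± 0.60 (SE), was smaller than its error (edgeR's adjusted p = 0.711). Without crossed replicate 1 it was -1.12 ± 0.45 (SE), which did not pass the threshold either (edgeR's adjusted p = 0.16).

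The Argonaute gene of meiotic silencing, sms-2 (NCU09434), had 6, 2 and 3 counts in crossed replicates 1, 2 and 3, and 4 and 11 counts in uncrossed replicates 1 and 3. With these counts it did not pass the filter and was not tested. The pooled counts, 11 in crossed and 15 in uncrossed libraries, gave a ratio of crossed to uncrossed of 0.536 with a counting interval of 0.223 to 1.25, so no difference was detectable at this depth.

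The gene sad-2 (NCU04294), whose product holds SAD-1 at the nuclear periphery, had 0 counts in all 3 crossed libraries and in uncrossed replicate 1, and 5 counts in uncrossed replicate 3. A count of 0 allows up to 0.0841, 0.0873 and 0.110 CPM in crossed replicates 1, 2 and 3 and 0.102 CPM in uncrossed replicate 1, taking 3 counts as the limit. The 5 counts are 0.119 CPM with an exact 95% Poisson interval of 0.0388 to 0.279 CPM. That interval includes each of these limits, which hold for single libraries and do not decide on a difference between the groups. All 5 counts came from 1 library, so no statement on a difference was made. The gene sad-2 was not tested for the same reason as sms-2.

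The vegetative and sexual sets were set against each other within each library, where the ratio of 2 genes does not depend on how libraries are scaled. There were 4 pairs, each of genes for the same named kind of protein, on counts per length with 0.5 counts added. In 3 of them a meiotic silencing gene was set over a quelling gene, and in the Dicer pair dcl-1, which acts in both pathways, was set over dcl-2. With 3 libraries against 2 there are 10 splits. The two-sided exact permutation p doubles the smaller one-sided p, so its smallest possible value is 0.2. No pair could thus pass 0.05, and a large p does not show that a ratio was unchanged. The polymerases differed widely in level. The log2 ratio of sad-1 to qde-1 was -6.08, -6.79 and -6.86 in crossed replicates 1, 2 and 3, and -6.82 and -6.28 in uncrossed replicates 1 and 3, so that qde-1 was 67.5 to 116 times as high as sad-1. These ratios rest on 7 to 27 sad-1 counts per library. The groups overlapped, and the difference of means was -0.02 (exact permutation p = 1.0).

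The Argonautes were further apart still. The log2 ratio of sms-2 to qde-2 was -10.07, -10.59 and -9.89 in crossed replicates 1, 2 and 3, and -9.97 and -9.17 in uncrossed replicates 1 and 3, which puts qde-2 at 576 to 1544 times sms-2. These ratios are rough, since they rest on 2 to 11 sms-2 counts per library, and the highest comes from 2 counts in crossed replicate 2. Here too the groups overlapped (difference -0.62, exact permutation p = 0.4). The Dicers were even, since dcl-2 was 0.925 to 1.16 times dcl-1 over the 5 libraries. The log2 ratio of dcl-1 to dcl-2 was -0.21, 0.08 and -0.09 in crossed replicates 1, 2 and 3, and -0.08 and 0.11 in uncrossed replicates 1 and 3 (difference of means -0.09, exact permutation p = 0.4).

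The helicases were the pair whose groups stood apart. They were paired by that name alone, qde-3 being a RecQ DNA helicase gene, and need not be counterparts in the 2 pathways. The log2 ratio of sad-3 to qde-3 was -2.74, -1.92 and -1.95 in crossed replicates 1, 2 and 3, and -3.84 and -3.005 in uncrossed replicates 1 and 3. All crossed ratios were above both uncrossed ratios, and the difference of means was 1.22, with mean ratios of -2.20 ± 0.47 in crossed (SD, n = 3) and -3.42 ± 0.59 in uncrossed libraries (SD, n = 2). The exact permutation p was 0.2, the smallest that 10 splits allow, and 0.533 when adjusted over the 4 pairs. The gene qde-3 was 3.77 to 14.3 times as high as sad-3.

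**Figure D3:**
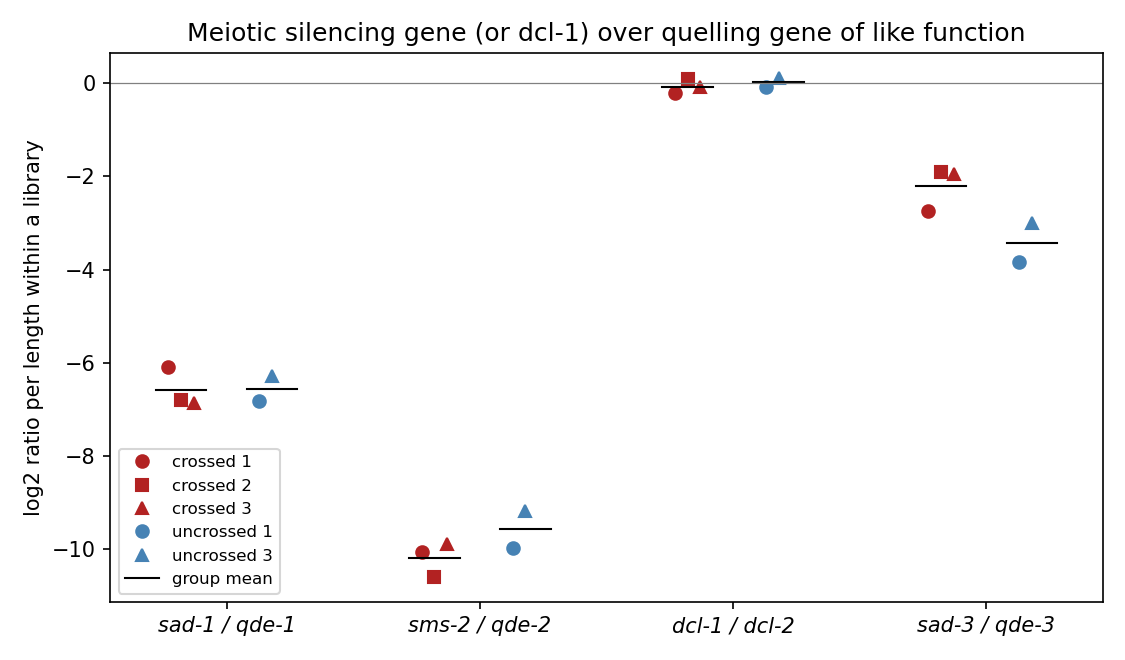
Log2 ratio per length (vertical axis) within each library, for 3 meiotic silencing genes and for dcl-1 from the genes of both pathways. Each was set over a quelling gene for the same named kind of protein. Points are crossed (red) and uncrossed (blue) libraries, with the group means as black bars. The sad-3 to qde-3 ratio averages -2.20 in crossed and -3.42 in uncrossed libraries, while the crossed and uncrossed points of the other 3 pairs overlap.

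Members of one pathway did not move as a block across the libraries. Centred on their own mean over the 5 libraries, the log2 CPM of qde-1, qde-2 and sad-1 were above 0 in crossed replicate 1 and both uncrossed libraries and below 0 in crossed replicates 2 and 3. Of the 7 tested sexual markers, asd-1 and pp-1 had the same signs in all 5 libraries, and the other 5 (poi-2, sub-1, fsd-1, asd-4 and per-1) did not. The ribosomal RNA share was highest in crossed replicates 2 and 3, at 34.0% and 33.6%, and so was the summed conidial signal, at 64029 and 59585 CPM. The part of either in the low qde-1, qde-2 and sad-1 values was not tested. The genes sad-3, dcl-1, dcl-2 and qip were highest in crossed replicates 2 and 3. The SD of log2 CPM over the 5 libraries was 0.86 for sad-3 and 0.63 for sad-1, against a median of 0.22 over all tested genes, and sad-1 rests on 7 to 27 counts per library.

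**Figure D4:**
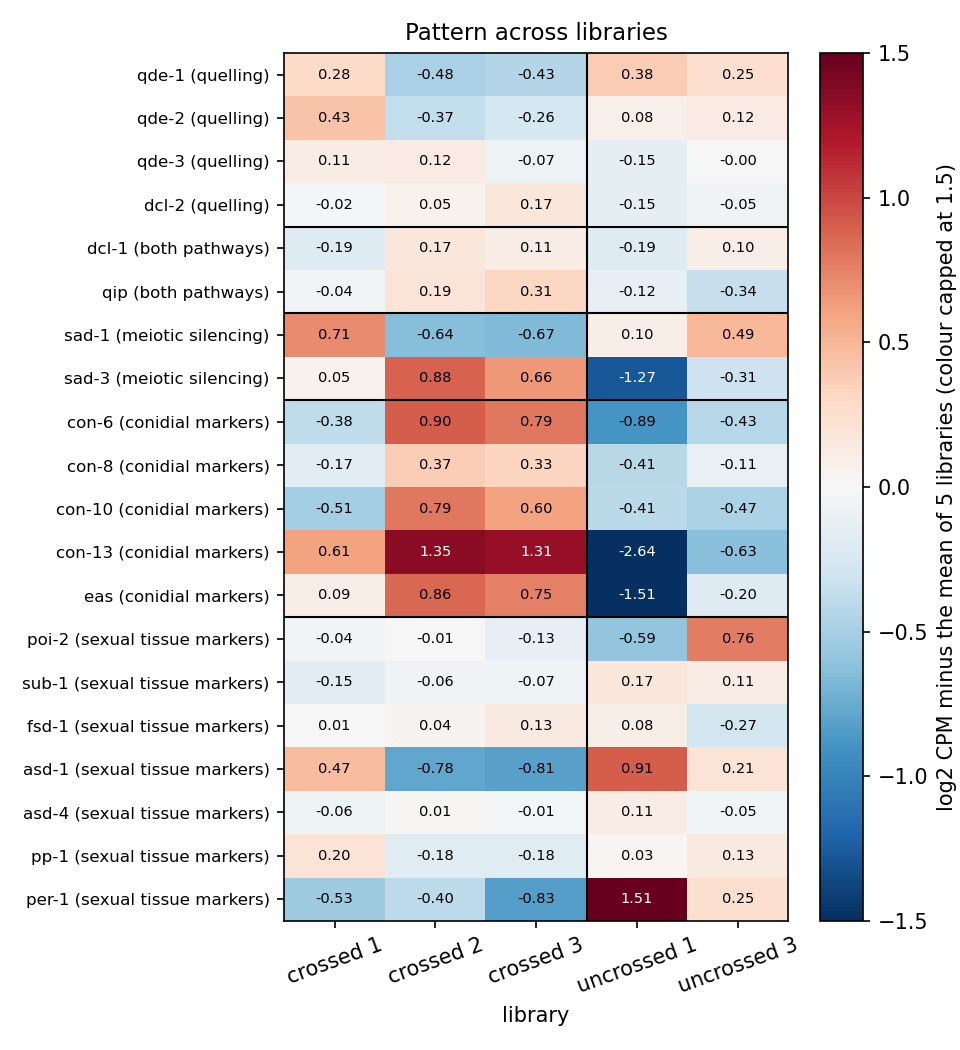
Log2 CPM minus the gene's mean over the 5 libraries for the 8 tested members, the 5 conidial markers and 7 sexual tissue markers (rows) in each library (columns), red above and blue below that mean. Crossed replicates 2 and 3 share the sign of crossed replicate 1 in sad-3. They have the opposite sign in qde-1, qde-2 and sad-1, where crossed replicate 1 is above the mean. They also have the opposite sign in dcl-2, dcl-1 and qip, where crossed replicate 1 is below it.

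The genes most like each set in pattern were found by the root mean square difference in centred log2 CPM over the 5 libraries, among 6797 genes. Closest to the mean of the 4 quelling genes were NCU08190 (0.018), NCU09657 (0.019) and pod-4 (NCU02620, 0.022). Centred dcl-2 had the opposite sign to that mean in all 5 libraries, so the mean does not describe dcl-2. Closest to the mean of sad-1 and sad-3, the 2 tested genes of meiotic silencing, were NCU09260 (0.021), NCU06691 (0.047) and NCU01979 (0.050). Centred sad-1 and sad-3 had opposite signs in 4 of the 5 libraries, so that mean describes neither gene.

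Other genes linked to RNA silencing were drawn from a list of 15 symbols, of which 5 were matched in the gene table. They encode the subunits of replication protein A (rpa-1, rpa-2 and rpa-3), which binds single-stranded DNA, and homologous recombination proteins of the RAD52 (mus-11) and RAD54 (mus-25) type. Homologous recombination is linked to the production of small RNAs at repeats in N. crassa. By edgeR 0 of the 5 passed the adjusted threshold, with 1 unadjusted p under 0.05 (mus-25), and 0 were called by DESeq2. The groups did not overlap in 4 of the 5, 2 with crossed higher and 2 with crossed lower, against 41.9% of all tested genes.

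With scaled libraries both recombination genes were higher in crossed libraries by small amounts. The larger difference was in mus-25, with 14.8, 16.3 and 17.9 CPM in crossed replicates 1, 2 and 3, and 11.5 and 12.5 CPM in uncrossed replicates 1 and 3. The estimate of 0.44 ± 0.15 (log2, SE) did not pass the threshold (edgeR's adjusted p = 0.195). The values of mus-11 averaged 24.05 ± 1.63 CPM in crossed (SD, n = 3) and 21.4 ± 0.0321 CPM in uncrossed libraries (SD, n = 2). Its log2 fold change of 0.17 ± 0.11 (SE) did not pass the threshold (edgeR's adjusted p = 0.4055).

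The log2 fold changes of the 3 replication protein A genes were small and below 0, and the groups overlapped in rpa-3. The gene rpa-1 averaged 87.5 ± 6.07 CPM in crossed (SD, n = 3) and 97.1 ± 1.69 CPM in uncrossed libraries (SD, n = 2), and its log2 fold change of -0.15 ± 0.10 (SE) did not pass the threshold (edgeR's adjusted p = 0.401). The gene rpa-2 averaged 38.4 ± 0.154 CPM in crossed (SD, n = 3) and 41.4 ± 2.75 CPM in uncrossed libraries (SD, n = 2), and its log2 fold change of -0.11 ± 0.10 (SE) did not either (edgeR's adjusted p = 0.527). The gene rpa-3 averaged 63.3 ± 2.27 CPM in crossed (SD, n = 3) and 66.0 ± 2.18 CPM in uncrossed libraries (SD, n = 2). Its fold change was -0.06 ± 0.09 on the log2 scale (SE, edgeR's adjusted p = 0.705). With plain library sizes the log2 fold change of mus-11 turned to a value below 0.

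Relative expression in the authors' deposited table is given for each stage as a ratio to the lower stage, with limits. In the authors' deposited table the limits of the stages lay apart for 7 of the 9 members with an estimate in both, 2 with crossed higher and 5 with crossed lower, against 75.3% of all genes with both estimates, 15.7% with crossed higher and 59.6% with crossed lower. The helicase gene sad-3 stood at 2.09 (limits 1.94 to 2.21) in crossed and 1 (0.877 to 1.15) in uncrossed cultures in the authors' deposited table. The gene qip stood at 1.15 (1.12 to 1.18) in crossed and 1 (0.969 to 1.03) in uncrossed cultures in the authors' deposited table. The polymerase gene qde-1 was at 1 (0.972 to 1.03) in crossed and 1.58 (1.55 to 1.61) in uncrossed cultures in the authors' deposited table, although crossed replicate 1 alone had 58.0 CPM.

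In the authors' deposited table qde-2, qde-3 and dcl-1 were also lower in crossed cultures, with uncrossed cultures at 1.22, 1.06 and 1.13 times the crossed level. The counts gave qde-3 and dcl-1 a log2 fold change of the opposite sign with scaled libraries and of the same sign with plain library sizes. The gene sms-2 was at 1 (0.558 to 1.62) in crossed and 2.29 (1.67 to 2.74) in uncrossed cultures in the authors' deposited table, from the few counts given above. For sad-2 the authors' deposited table lists crossed cultures at 0. These ratios rest on the same libraries as the counts.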

How the data were processed

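The authors deposited counts per gene, as whole numbers, in 1 column for each of the 5 libraries. Per the submitters' processing notes, CASAVA 1.8.2, fastp, HISAT2 2.1.0 and StringTie 1.3.3b were used. The sources used here do not name their roles, the build, the annotation or whether counting used strand, and counts derived from StringTie coverage would be estimates. Per the labels' protocols, libraries were stranded TruSeq, read as 101 bp paired ends. The authors' deposited table gives relative expression as a ratio per stage, with distances to its limits.

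Gene rows numbered 10591, of which 10590 were matched to assembly NC12. The row mat_a1, with 6 values for 5 libraries, was left out. Counts were filtered with filterByExpr (8638 genes kept), scaled by TMM and tested in R 4.3.3 by edgeR 4.0.16 (robust quasi-likelihood test), two-sided, with the group alone in the model and Benjamini-Hochberg adjustment over all tested genes. SEs come from the F statistic. Log2 CPM used a prior count of 2. Alternatives included DESeq2 1.42.0 and voom in limma 3.58.1. The floor of 3 counts was 0.0717 to 0.110 CPM, and intervals and floors cover counting error only. All 10 members are named, with those of 5 further genes whose groups did not overlap and rpa-3, to complete its set (1 planned gene is not reported here), and up to 3 genes most like each set among genes with a mean of at least 10 CPM. Members, lists and pairs were chosen with earlier results of these data known.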

Additional observations from a re-analysis of the deposited data

How the results depend on the processing

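DESeq2 called 1027 genes and 1 member (sad-3), and the replicate block, a fit with the replicate number as a term, called 266 genes and 0 members. Replicate numbers 1 and 3 are shared by the groups, and deviations from the group mean correlated across genes at 0.257 for number 1 and 0.224 for number 3. With 2 pairs and no label saying what a number marks, the libraries share only a number. Leaving out each crossed library gave 0 to 762 genes and 0 to 1 member called. Without crossed replicate 1 the groups did not overlap in 7 of the 8 members, against 69.3% of all tested genes. In the fits that each left out 1 library, the log2 fold change of qde-2 ranged from -0.41 to 0.027. That of dcl-1 ranged from -0.06 to 0.23 and that of sad-1 from -1.12 to -0.13. Plain library sizes gave -0.08 for qde-3, -0.051 for dcl-2 and -0.15 for dcl-1. The sad-1 to qde-1 difference was 0.085 within replicate numbers (replicate block) and -0.30 to 0.25 without single libraries, and the dcl-1 to dcl-2 difference -0.19 to 0.003. The cause was not tested. The signs of qde-1, qip, sad-1 and sad-3 held in each alternative fit that tested them. Counting the members without overlap, with all 5 libraries (3 of 8) and under each alternative, was chosen after seeing the data. Levels per coding length were not run, since the gene table holds no coding lengths. A lone uncrossed library was taken to vary as the crossed libraries do. At these depths sad-1, sad-2 and sms-2, with 0 to 27 counts per library, allow no statement on a change.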
